A study of Mus musculus with 6 samples.

Results

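The anterior Hox genes described here are Hoxa2, Hoxa3, Hoxa4, Hoxa5, Hoxb2, Hoxb3, Hoxb4, Hoxb5 and Hoxd3, the members of the Hox clusters read in the hindbrain and pharyngeal arches. They were taken as every probe set whose platform annotation gives 1 of these 9 symbols alone, which found 16 of the 45101 probe sets on the array. Gene expression was measured on 6 Affymetrix mouse expression arrays of the carotid body, a small arterial organ that senses blood oxygen. The organs came from untreated male mice aged 28 days, from A/J and from DBA/2J, both inbred strains of the Jackson Lab, with 3 arrays each. Each array held RNA pooled from 18 to 21 mice (36 to 42 carotid bodies), so the spread between arrays is a spread between pools and does not show single mice. The labels name no transgene or other allele in either strain. The comparison asks how carotid body expression differs by strain.

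Hox genes encode transcription factors that bind DNA through a homeodomain, and they lie in 4 clusters whose gene order follows the order of their domains along the head-to-tail axis. Genes with the same number in different clusters are paralogs. In the embryo the carotid body forms from the third pharyngeal arch, where neural crest cells express genes of paralog group 3, and mice without Hoxa3 form no carotid body. HOX proteins bind DNA together with cofactors of the TALE homeodomain class, the PBX and MEIS proteins, and retinoic acid is a classic activator of the anterior end of the clusters.

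RefSeq promoter sequences (GRCm38.p6) were found for 5 of the 9 genes. The stretches of 250 bases before the transcription start of Hoxa2 and Hoxa5 are shown, because these are the genes with a tested probe set whose arrays did not overlap between strains. Both lie on chromosome 6, minus strand, Hoxa2 at chr6:52164832-52165081 and Hoxa5 at chr6:52204588-52204837. Capitals mark matches on either strand to the HOX-PBX motif TGATNNAT, the MEIS motif TGACAG, the CCAAT box (CCAAT) and the TATA box (TATAAA).
Hoxa2: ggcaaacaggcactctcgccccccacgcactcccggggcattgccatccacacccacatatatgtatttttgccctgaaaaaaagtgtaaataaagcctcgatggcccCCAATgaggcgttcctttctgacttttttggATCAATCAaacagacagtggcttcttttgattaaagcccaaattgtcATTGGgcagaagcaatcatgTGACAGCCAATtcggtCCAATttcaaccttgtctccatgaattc
Hoxa5: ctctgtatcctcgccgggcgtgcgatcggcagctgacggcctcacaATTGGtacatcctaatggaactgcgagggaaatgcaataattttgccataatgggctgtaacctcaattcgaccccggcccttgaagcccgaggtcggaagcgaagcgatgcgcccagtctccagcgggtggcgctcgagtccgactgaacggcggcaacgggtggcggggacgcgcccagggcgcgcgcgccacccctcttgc

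The Hoxa2 stretch held 1 HOX-PBX match (ATCAATCA, starting 111 bases before the start site), 1 MEIS match starting at 44 bases and 4 CCAAT boxes starting at 142, 64, 38 and 28 bases. The MEIS match and the CCAAT box at 38 bases stand side by side, and no matches overlapped. The Hoxa5 stretch held 1 CCAAT box, at 204 bases, and none of the other motifs. Of the stretches not shown, Hoxa3 held 1 MEIS match, at 13 bases, Hoxd3 held 1 CCAAT box, at 142 bases, and Hoxb4 held no match. Of 32851 RefSeq promoter stretches of the same length, 7.68% held the HOX-PBX letters, 15.9% the MEIS letters, 33.8% a CCAAT box and 12.4% a TATA box. These matches describe the sequence and show no binding.

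No anterior Hox probe set passed the test between strains. The deposited signals were transformed as log2(signal + 16), and the dimmest 40% of probe sets by mean over the 6 arrays were not tested, which corresponds to a mean signal of about 114. This left 60% of all probe sets and 8 of the 16 members, from 6 of the 9 genes: Hoxa2, Hoxa3, Hoxa5, Hoxb2, Hoxb3 and Hoxb4. Hoxa4, Hoxb5 and Hoxd3 had no tested probe set. With limma, 0 of the 8 passed a Benjamini-Hochberg adjusted p of 0.05, against 3.27% of the 27022 probe sets tested (1.86% higher and 1.41% lower in DBA/2J). Without the filter it was 0 of 16, against 1.82% of all probe sets. At an unadjusted p under 0.05, 2 of the 8 passed, against 15.3% of all tested. Over all 16 probe sets, in a fit without the filter, 11 log2 differences (DBA/2J minus A/J) were below 0 and 5 above, with a median of -0.20, while 48.7% of all probe sets were below 0 and their median was 0.01. With only the probe set of highest mean for each gene, 3 of the 6 tested differences were below 0 and 3 above, with a median of 0.03. Over all 9 genes, tested or not, that median was 0.0006. The probe sets of a gene share its transcript, so these counts describe the members and were not tested as a group.

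**Figure D1:**
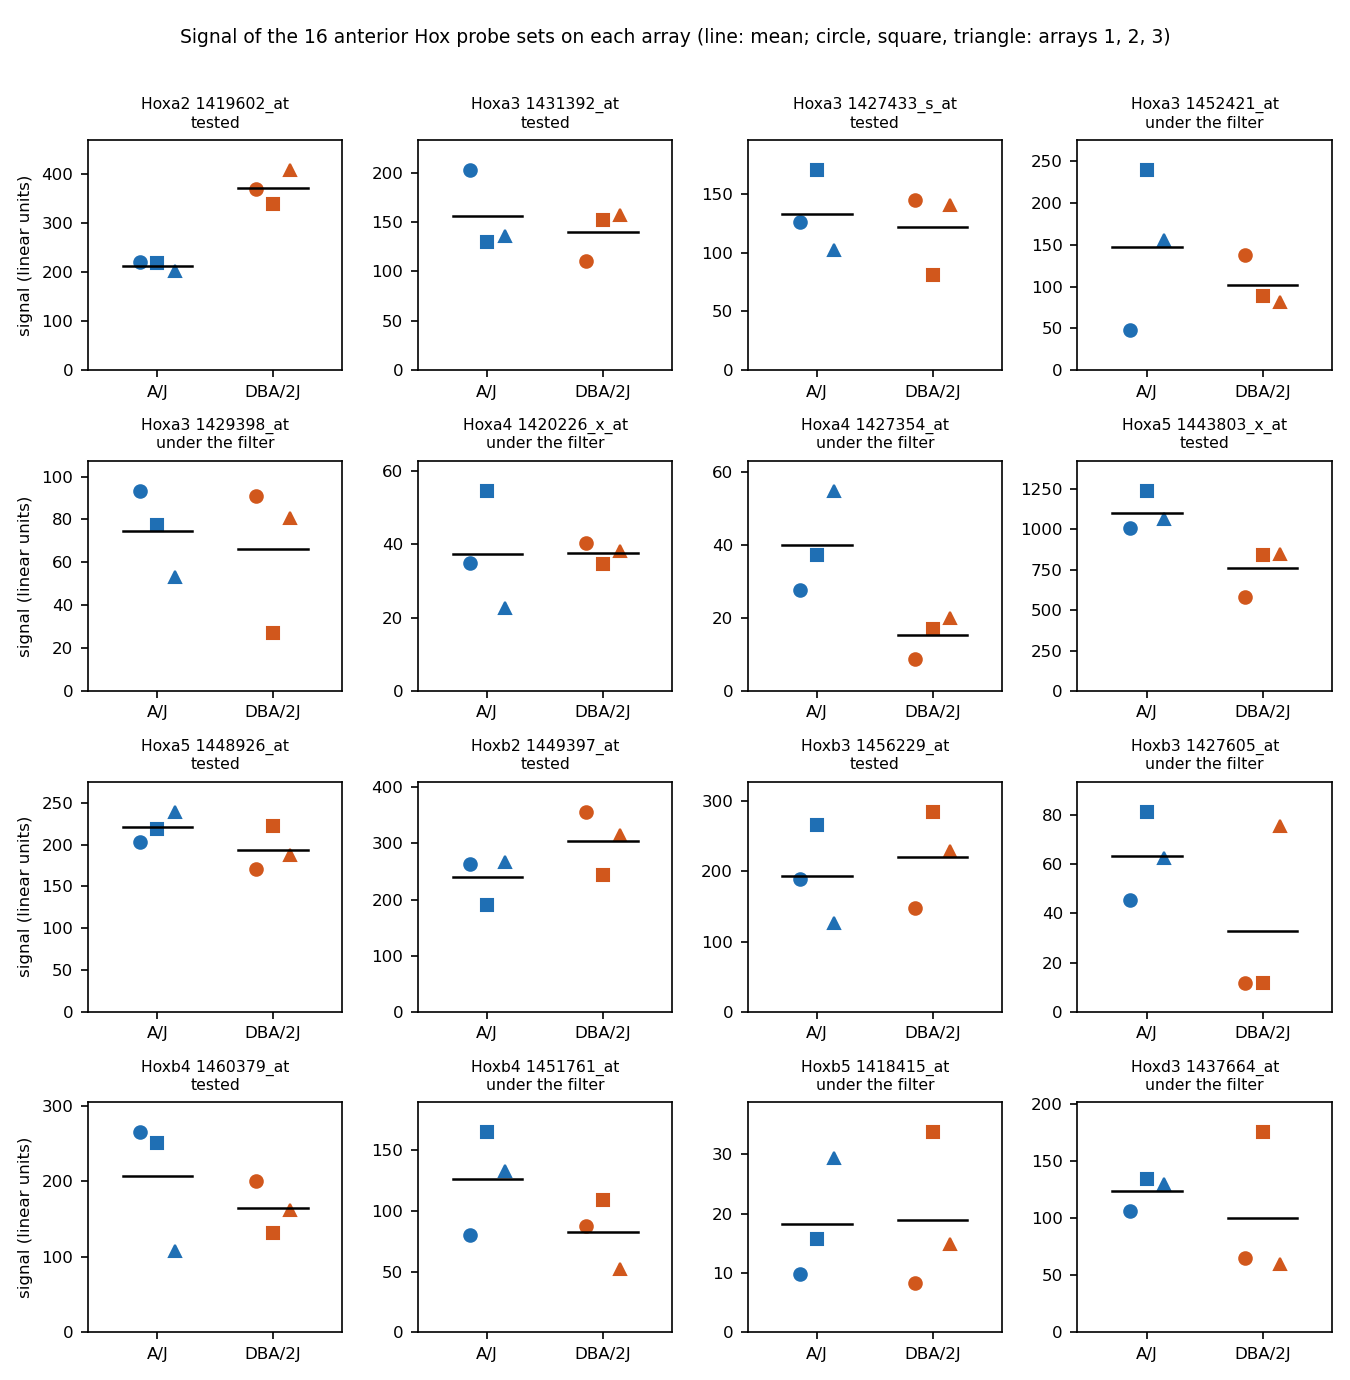
Signal of each of the 16 anterior Hox probe sets (vertical axis, linear units, a scale of its own in each panel) on the 3 A/J arrays (blue) and 3 DBA/2J arrays (orange), with the strain mean as a line. The strains do not overlap for Hoxa2 1419602_at, Hoxa4 1427354_at and Hoxa5 1443803_x_at, and they overlap in the other 13 panels.

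Hoxa2, the selector gene of the second pharyngeal arch, had a higher signal on every DBA/2J array than on any A/J array, but did not pass the test. Its probe set (1419602_at) had signals of 219.8, 217.9 and 201.4 on A/J arrays 1, 2 and 3 and of 369.8, 337.8 and 407.3 on DBA/2J arrays 1, 2 and 3. The lowest DBA/2J array thus stood well above the highest A/J array, and the A/J arrays lay close together. The mean was 213 ± 10.1 in A/J, against 372 ± 34.8 in DBA/2J (SD, n = 3 arrays), a ratio of 1.74. The log2 difference was 0.76 (SE 0.19, 95% interval 0.32 to 1.19), with an unadjusted limma p of 0.00347 and an adjusted p of 0.0784. It therefore missed the threshold, while its direction was the same under all 20 alternatives, from 0.65 to 0.84. The adjusted p over those alternatives ran from 0.0151 with array weights to 0.693 with a fixed block on numbers shared in array titles. That block lets only arrays 2 and 3 of each strain bear on the difference. The submitters describe a rule that needs a 1.5-fold change in at least 6 of the 9 array pairs as well as a p under 0.05. With the unadjusted limma p standing in, Hoxa2 was the only one of the 8 tested probe sets to pass that rule, which 10.1% of all tested probe sets passed.

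Hoxa5, which acts in the development of the lung, thyroid and cervical skeleton, had 2 tested probe sets, both with log2 differences below 0 that did not pass. The one with the higher mean (1443803_x_at, of the kind that Affymetrix marks as open to cross-hybridisation) had signals of 1007, 1239 and 1065 in A/J, against 583.5, 844 and 850.1 in DBA/2J. The strains did not overlap, with DBA/2J array 1 standing below the other DBA/2J arrays. Its mean was 1104 ± 121 in A/J, against 759 ± 152 in DBA/2J (SD, n = 3), with a log2 difference of -0.55 (SE 0.21, 95% interval -1.03 to -0.06, limma adjusted p = 0.256). With 1 array left out the difference ran from -0.64 to -0.37, the latter without DBA/2J array 1 (adjusted p = 0.637). The other probe set (1448926_at) had signals of 203.5, 219.1 and 239.5 in A/J, against 170.8, 222.2 and 187.7 in DBA/2J. Here the strains overlapped, since DBA/2J array 2 stood above A/J arrays 1 and 2, and the log2 difference was -0.18 (adjusted p = 0.770).

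Of all 16 probe sets, 3 had strains that did not overlap, 1 with DBA/2J above and 2 below, while 18% of all probe sets on the array did so (9.77% above and 8.27% below). The remaining one was a dim probe set of Hoxa4 (1427354_at), with signals of 27.6, 37.1 and 54.7 in A/J, against 8.7, 16.8 and 20 in DBA/2J. It was not tested, and in the fit without a filter its log2 difference was -0.83 (adjusted p = 0.262). The other Hoxa4 probe set (1420226_x_at) lay between 22.5 and 54.6 in A/J, with DBA/2J inside that range at 34.7 to 40.5, with a difference of 0.05. The probe sets of Hoxa4 therefore give no common direction, and both lie far below the filter.

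Hoxa2 and Hoxa5 lie in the same cluster, and their differences had opposite signs. Comparing them within each array takes out any scaling of that array. The log2 value of Hoxa2 minus that of Hoxa5 (1443803_x_at) was -2.12, -2.42 and -2.31 on the A/J arrays and -0.64, -1.28 and -1.03 on the DBA/2J arrays. The mean difference between strains was 1.30. This pair was chosen after its values were seen, as a gene with DBA/2J above and a gene with DBA/2J below, so the choice fixes that the strains separate here, and no test was made.

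Paralog group 3 showed no strain difference that these arrays could resolve. Hoxa3, the gene whose loss removes the organ, had 4 probe sets, all with log2 differences below 0 but small beside their errors. The one with the highest mean (1431392_at) had signals of 202.6, 129.9 and 136.3 in A/J, against 110.5, 152.2 and 157.2 in DBA/2J, so the strains overlapped and A/J array 1 was highest. Its log2 difference was -0.13 (SE 0.27, 95% interval -0.73 to 0.47, limma adjusted p = 0.880), and it turned to 0.051 without A/J array 1 and to 0.011 without DBA/2J array 1. The probe set 1427433_s_at had signals of 126.6, 170.5 and 102.8 in A/J, against 145, 81.5 and 140.8 in DBA/2J, with a difference of -0.12 (adjusted p = 0.908). Neither interval excludes a change of about the size seen for Hoxa5. The remaining probe sets of Hoxa3, 1452421_at and 1429398_at, were not tested and ran from 48.5 to 239.6 and from 53 to 93.3 in A/J. In DBA/2J they ran from 81.4 to 137.5 and from 27.2 to 90.9.

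Hoxb3, the paralog in the Hoxb cluster, had signals of 189.5, 266.1 and 126.1 in A/J, against 147.2, 285.1 and 229.5 in DBA/2J on its tested probe set (1456229_at). The spread within each strain was wider than the gap between them, with a log2 difference of 0.18 (SE 0.32, adjusted p = 0.860). Its direction turned without A/J array 3 (-0.07), without DBA/2J array 2 (-0.01) and with the mean of both Hoxb3 probe sets (-0.37). The dim one (1427605_at) had 45.4, 81.4 and 62.7 in A/J, against 11.6, 11.7 and 75.6 in DBA/2J, where DBA/2J array 3 alone reached the A/J range. Hoxd3, the paralog in the Hoxd cluster, had a single probe set, which was under the filter (1437664_at). Its signals were 106.3, 134 and 130 in A/J, against 64.8, 174.9 and 60.1 in DBA/2J. Arrays 1 and 3 of DBA/2J were the lowest of the 6 and array 2 the highest, and the log2 difference was -0.40 in the fit without a filter (adjusted p = 0.774).

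Groups 2, 4 and 5 of the Hoxb cluster likewise did not pass. Hoxb2, the paralog of Hoxa2 that is active in hindbrain segments, had signals of 262.7, 189.6 and 266 in A/J, against 356.6, 243.1 and 314.8 in DBA/2J. Array 2 was the lowest of each strain, and DBA/2J array 2 lay inside the A/J range. The log2 difference was 0.33 (SE 0.23, 95% interval -0.20 to 0.86, limma adjusted p = 0.596). Hoxb4, also known for its part in blood stem cells, had 264.8, 251.4 and 107.2 in A/J, against 200.1, 131.5 and 161.6 in DBA/2J (1460379_at), with a difference of -0.24 (adjusted p = 0.823). A/J array 3 was the lowest of all 6 here, so DBA/2J lay inside the A/J range. With 1 array left out the difference ran from -0.62 without A/J array 3 (adjusted p = 0.418) to -0.026 without A/J array 1, and it was -0.062 without A/J array 2 and -0.10 without DBA/2J array 2. Another Hoxb4 probe set (1451761_at), which was not tested, ran from 80.6 to 164.8 in A/J, with DBA/2J at 52.2 to 109.1. Hoxb5 (1418415_at), also under the filter, lay between 9.9 and 29.4 in A/J, with DBA/2J at 8.3 to 33.7, and its log2 difference was 0.00.

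**Figure D2:**
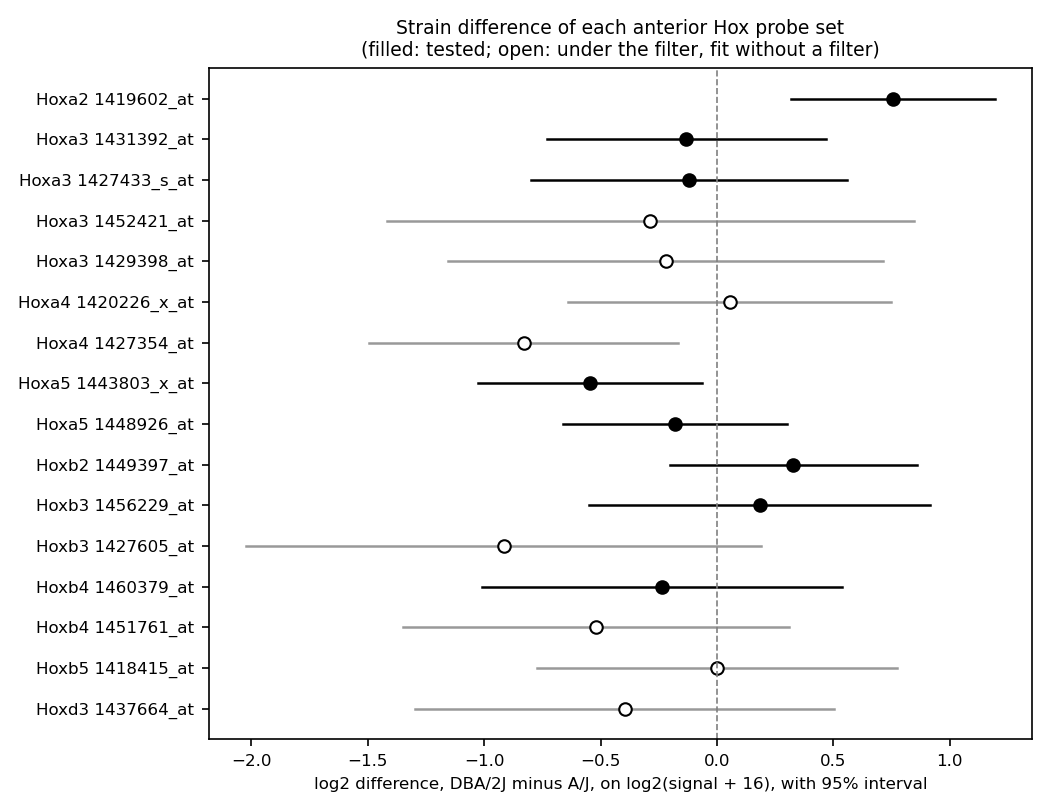
Log2 difference, DBA/2J minus A/J, of each anterior Hox probe set (horizontal axis, log2(signal + 16) scale) with its 95% interval as a line. Filled points were tested and open points come from the fit without a filter. The interval of Hoxa2 lies above 0, those of Hoxa4 1427354_at and Hoxa5 1443803_x_at lie below it, and the other 13 hold 0.

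Of the 5 genes with several probe sets, Hoxa3, Hoxa5 and Hoxb4 had all their differences on 1 side of 0. Hoxa4 ran from -0.83 to 0.05 and Hoxb3 from -0.92 to 0.18, in both cases with the lowest value from a probe set under the filter. A/J array 2 was the highest of the 6 in 6 of the 16 probe sets, and DBA/2J array 1 was the lowest in 6. Without either of these arrays, in turn, 10 of the 16 differences were below 0 in place of 11, and leaving out each array in turn, a check added after seeing the data, gave 10 to 13. Over the 6 arrays, the genes with the profile most like that of Hoxa3 (1431392_at), out of 13000 genes searched, were Rap1b, a small GTPase, with a Pearson r of 0.992, Dcun1d3 (0.989), a neddylation factor, and Steap3 (0.981), a ferrireductase. All 3 were highest on A/J array 1 and lowest on DBA/2J array 1, as Hoxa3 was. With 6 arrays and this many genes searched, such values are a description only.

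Of 32 probe sets of 24 other Hox genes named alone, 9 were tested (28.1%, against 50% of the anterior ones), and 0 were called with limma, 0 also at an unadjusted p under 0.05. The 6 probe sets of the other genes of paralog groups 1 to 5 (Hoxb1, Hoxd1, Hoxc4 and Hoxc5) were all under the filter. Hoxb1, a gene of a single hindbrain segment, had means of 103 ± 51.7 in A/J, against 78.3 ± 5.04 in DBA/2J (SD, n = 3). Hoxc4 had 53.1 ± 42.4 and 82.1 ± 49.6. Over the 26 probe sets of groups 6 to 13 the median log2 difference was 0.06, with 12 below 0 and 14 above. Of the 32 probe sets, 1, of Hoxa10, had every DBA/2J array above every A/J array and 1, of Hoxd11, had every one below, both under the filter, beside 9.77% and 8.27% of all probe sets.

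Marker signals of several cell types and tissues differed between strains, and they stand beside the Hox values here. The summed signal of 14 type I cell markers, among them Th and Chga, ran from 44809 to 50931 in A/J, against 83636 to 90311 in DBA/2J, and of the 14 tested, 8 rose and 0 fell. The 14 skeletal muscle markers summed to 51349 to 121899 in A/J, against 1721 to 2938 in DBA/2J, and 13 of 13 tested fell. The 7 fat markers summed to 47867 to 66795 in A/J, against 24754 to 39535 in DBA/2J, with 2 of 6 tested lower. The lowest single signals in the type I cell, muscle and fat lists were 96.3, 6.1 and 14.5, and no detection calls were used. Connective tissue fibroblast markers, 11 in all, overlapped between strains (104305 to 108924 and 83933 to 111408), with 2 of 11 higher, and the lists of thymus (2 tested genes) and of parathyroid and thyroid (4 tested) had no called gene. The 8 markers of Schwann and type II cells summed to 41907 to 50091 in A/J, against 29561 to 35491 in DBA/2J, with 1 lower. Of the tested markers of neurons (8) and of vessels (9), 0 were called, and 1 of 2 of salivary gland was lower.

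Hoxa2 was high in the strain with high type I cell signal, and Hoxa5 1443803_x_at in the strain with high muscle, fat and glial signal. The other Hoxa5 probe set overlapped between strains. Within strains, Hoxa2 was highest on A/J array 1 (219.8) and DBA/2J array 3 (407.3), where the type I cell sums were lowest (44809 and 83636). It was lowest on A/J array 3 (201.4) and DBA/2J array 2 (337.8), where these sums were neither highest nor lowest. Within A/J, Hoxa5 1443803_x_at was highest on array 2 (1239), where the muscle and fat sums were lowest (51349 and 47867). It was lowest on array 1 (1007), where these sums were highest (121899 and 66795) and the glial sum was lowest (41907). The glial sum was highest on array 3 (50091), where this probe set read 1065. Within DBA/2J, Hoxa5 1443803_x_at was highest on array 3 (850.1), where the muscle and glial sums were lowest (1721 and 29561). It was lowest on array 1 (583.5), where the fat sum was lowest (24754). Array 2 (844) held the highest muscle, fat and glial sums of that strain. The part of these cell types in the Hox values was not tested. In such pooled organs, fewer cells of a type and less RNA per cell cannot be told apart.

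**Figure D3:**
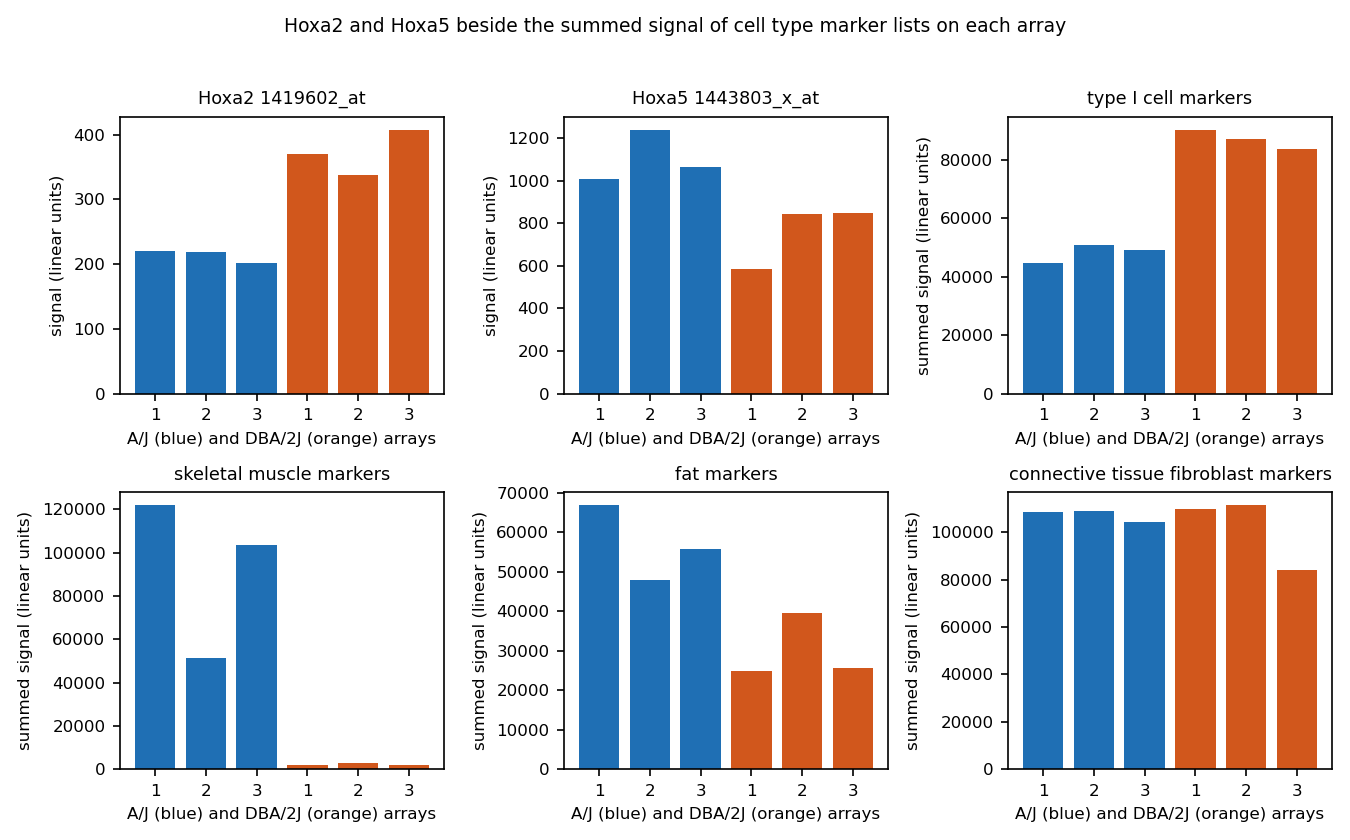
Signal of Hoxa2 and of Hoxa5 1443803_x_at, and summed signal of 4 marker lists (vertical axes, linear units, each from 0), as 1 bar per array for A/J (blue) and DBA/2J (orange). Type I cell markers and Hoxa2 are higher on all DBA/2J arrays, muscle and fat markers and Hoxa5 on all A/J arrays, and fibroblast markers overlap.

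The partners and regulators of the anterior Hox genes were mostly not called. Of 92 genes listed in 4 groups, 79 had a probe set and 64 were tested with 1 probe set each. Of these, 2 were higher and 1 lower at an adjusted p of 0.05, against 3.77% of 13006 genes tested (2.17% higher and 1.6% lower). The median log2 difference was 0.05, beside 0.03 for all genes, and 15 of the 64 had an unadjusted p under 0.05, against 17.1% of all genes. The count rests on few arrays: it was 0 without DBA/2J array 1, 1 without A/J array 1, A/J array 3 or DBA/2J array 3, and 7 without DBA/2J array 2.

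Of 7 tested TALE cofactors, 0 passed (2 at an unadjusted limma p under 0.05), and 6 had differences above 0, beside 6889 of all 13006 genes, with a list median of 0.25. Meis1, which joins HOX and PBX proteins on DNA, had means of 505 ± 36.4 in A/J, against 742 ± 99 in DBA/2J (SD, n = 3), with a log2 difference of 0.54 (adjusted p = 0.208) and other probe sets from -0.23 to 0.58. Meis2 had 675 ± 200.2 and 1009 ± 342, a difference of 0.56 (adjusted p = 0.417). Pbx3 had 812 ± 120.2 and 1065 ± 127, a difference of 0.39 (adjusted p = 0.408). Of 25 tested trithorax and Polycomb genes, which keep Hox genes on or off, 0 passed (1 at an unadjusted p under 0.05), and their median was 0.06.

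Of 16 tested genes of the retinoic acid and segmental group, 1 fell, 0 rose and 15 did not pass. At an unadjusted limma p under 0.05 there were 5, against 17.1% of all genes. Differences were below 0 for 13 of the 16, beside 6117 of all 13006 genes, with a list median of -0.41 beside 0.03, and the list was not tested as a group. Aldh1a1, an enzyme that makes retinoic acid, fell from 3772 ± 1011 in A/J to 1387 ± 115 in DBA/2J (SD, n = 3; log2 difference -1.40, limma adjusted p = 0.0104). Its call held in 16 of 20 alternatives. Those that missed included the fits without A/J array 3 (adjusted p = 0.0548) and without DBA/2J array 1 (0.0598). Aldh1a2, the enzyme that makes most retinoic acid in the embryo, had 518 ± 100.7 and 254 ± 60.2, with a log2 difference of -0.99 (adjusted p = 0.0640). It passed in 5 of 20 alternatives, among them without DBA/2J array 2 (adjusted p = 0.0296). Leaving that array out also raised the calls over all probe sets from 883 to 1351. The muscle, fat and glial markers were also lower in DBA/2J, and their part was not tested.

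Among 16 tested partners of arch and pouch development, 2 rose, 0 fell and 14 did not pass, with a median of 0.35. Here 7 had an unadjusted limma p under 0.05, against 17.1% of all genes. Hand2, a factor of sympathoadrenal and arch crest, rose from 1480 ± 428 to 5059 ± 1951 (SD, n = 3; log2 difference 1.71, adjusted p = 0.0240). Phox2a, needed for noradrenergic neurons and type I cells, rose from 266 ± 139 to 1023 ± 490 (1.89, adjusted p = 0.0496). The type I cell markers, a list that holds Phox2a, were higher in the same strain, and their part was not tested. The call of Hand2 held in 13 of 20 alternatives. Among others, Hand2 missed the threshold with probe sets averaged (0.86, adjusted p = 0.0635), and without A/J array 1 or 3 or DBA/2J array 1 or 3 (adjusted p from 0.0810 to 0.123). Phox2a missed it under 15 of 20 alternatives (adjusted p from 0.0525 to 0.348), and was 1.21 with array weights. Eya1, which acts in arch and pouch development, had 480 ± 162 and 1407 ± 678 (1.47, adjusted p = 0.0674). Eya1 passed in 4 of 20 alternatives, among them without DBA/2J array 2 (adjusted p = 0.0171), where the calls over all probe sets rose too. Tbx1 had 287 ± 55.5 and 169 ± 27.2 (-0.71, adjusted p = 0.170), Pax9 had a log2 difference of -0.19 (adjusted p = 0.804), and the dim Pax1, not tested, had means of 29.8 ± 7.21 and 19 ± 8.18.

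**Figure D4:**
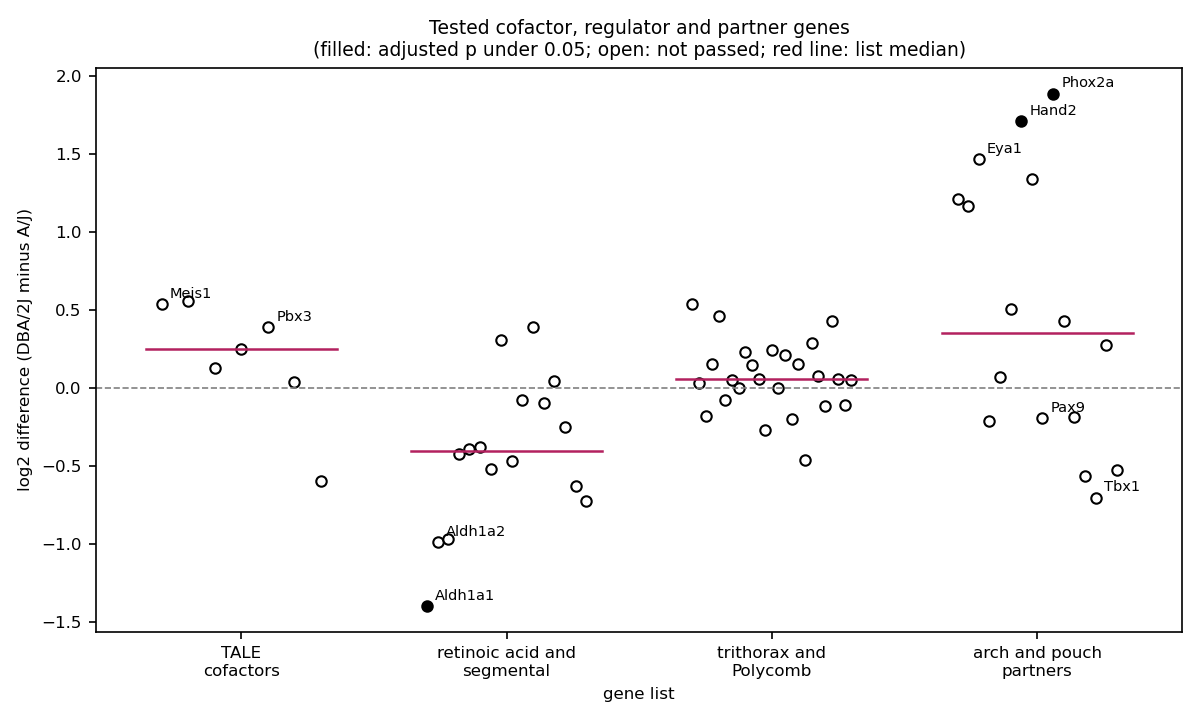
Log2 difference, DBA/2J minus A/J (vertical axis), of the tested genes of 4 lists (horizontal axis, genes in alphabetical order within a list), filled at an adjusted p under 0.05, with the list median in red. Phox2a and Hand2 stand highest and Aldh1a1 lowest, and the list medians are 0.25, -0.41, 0.06 and 0.35.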

How the data were processed

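Per array, 1 linear intensity per probe set was deposited, with the same trimmed mean on every array. The sources used here do not give the summary software. Array medians lay between 163.6 and 183, so no further normalization was applied. Per the labels' protocols, RNA was extracted with Trizol and amplified by repeated transcription from the poly(A) end, so probe sets far from that end can read low. Gene names come from the platform annotation that GEO holds, brought up to date with RefSeq (GRCm38.p6), which lists all 9 member symbols. In R 4.3.3 with limma 3.58.1, log2(signal + 16) of the upper 60% of probe sets (27022, after 64 controls were left out) was fitted by strain with an intensity trend, two-sided, and p was adjusted by Benjamini-Hochberg over all of them. The procedure was tested on simulated data. A gene in a list stands by its probe set of highest mean. With 3 arrays a strain, their number limits the precision. No detection calls were used, and p-values measure the spread between pools. Members and lists were chosen with earlier results of these data known. Named genes are all members, each called gene of the other Hox, cofactor, regulator and partner lists, a fixed set of those lists, and the 3 genes most like Hoxa3; Hoxa10 and Hoxd11 were named after their values were seen. Alternatives were quantile and median scaling, a pseudocount of 1 or of 64, testing all probe sets or the upper 40%, no trend, array weights, probe set means, arrays left out, title-number blocks and the series' rule.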

Additional observations from a re-analysis of the deposited data

How the results depend on the processing

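The count of 0 called anterior Hox probe sets held in 17 of 19 alternatives. It was 2 with array weights (Hoxa2 and Hoxa5) and 1 with the series' rule (Hoxa2). Hoxa2 also passed when probe sets of a gene were averaged (limma adjusted p = 0.0441). It has only 1 probe set, so its own values and log2 difference (0.76) were unchanged there. Only the genes fitted and adjusted beside it differed. The count of other Hox probe sets stayed at 0 in all 19. The count over all probe sets (883) was 3007 with array weights, 2130 without both arrays numbered 2, 63 without A/J arrays 1 and 3, 2725 with the series' rule, and between 341 and 1351 with 1 array left out. The count of 3 cofactor, regulator and partner genes was 13, 8, 0 and 12 in the same settings and between 0 and 7 with 1 array left out. Directions turned for Hoxa3 (-0.24 to 0.051 with 1 array left out, above 0 without A/J or DBA/2J array 1, and 0.082 without A/J arrays 1 and 3), for Hoxb3 (-0.0045 with array weights, -0.37 with probe set means, -0.070 to 0.43 with 1 array left out, below 0 without A/J array 3 or DBA/2J array 2, -0.30 without A/J arrays 1 and 3) and for Hoxb4 (0.16 with array weights, 0.075 without both arrays numbered 2). The untested Hoxa4 (0.05) was -0.39 with probe set means, -0.16 without A/J array 3 and -0.39 without A/J arrays 1 and 3. The untested Hoxb5 (0.00) ran from -0.32 to 0.23 over the alternatives. None of these values passed, and the cause was not tested. A number shared by the titles of 2 array pairs, which the labels do not explain, gave deviations correlated at -0.26 and 0.035. Array pairs without a shared number ran from -0.26 to 0.20. With 3 arrays a strain these values cannot decide on pairing, and the number was not taken as pairing. As a fixed replicate block it lets only those 2 array pairs bear on the strain difference, since arrays 1 of both strains share no number. That fit left limma 0 calls over all probe sets (1955 at an unadjusted p under 0.05) and 0 anterior Hox calls. It also left 0 of the cofactor and partner genes, and Hoxa3 at 0.20. These values cannot separate the block from the loss of arrays. As a random replicate block the number gave 848, 0 and 2 calls. Low signals limit Hoxa4, Hoxb5 and the dim probe sets of Hoxa3, Hoxb3 and Hoxb4.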

Other observations

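Some probe sets touch the anterior Hox loci without naming a member alone. A pair of probe sets is annotated to both Hoxd4 and Hoxd3, and both were dim: 1421537_at had means of 49 ± 24.2 in A/J, against 52.1 ± 11.8 in DBA/2J (SD, n = 3), and 1450209_at had 32.8 ± 13.7 and 44.7 ± 28.1. They give no strain direction for Hoxd3. Hoxb5os, an antisense transcript at Hoxb5, had 170 ± 15 and 171 ± 28, with a log2 difference of 0.00 (limma adjusted p = 0.999). Hoxd3os1, an antisense transcript at Hoxd3, had a tested probe set (1460056_at) at 261 ± 69.7 and 243 ± 67.5, with a difference of -0.11 (limma adjusted p = 0.915).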
